A study of Mus musculus with 17 samples.

Results

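Transcript levels of lysosomal genes were examined in eosinophils, granulocytes that gather in the esophagus in allergic disease. The genes were taken from a list of 47 that encode proteases, glycosidases, lipid-degrading enzymes, sulfatases, membrane proteins and subunits of the vacuolar proton pump (V-ATPase). The list is of names and applies no measured value, but it was chosen with earlier results of these data known. Of the 47 genes, 45 were measured among 22180 genes on the array. Glb1, the lysosomal beta-galactosidase, was covered only by a probe set that also carries another gene's symbol, and Atp6v0c, a proton-channel subunit, was not analysed here. All mice carried a transgene in which the CC10 promoter, active in airway club cells, drives interleukin-13 (IL-13) when doxycycline (Dox) is given in the food. Mice were 6 to 8 weeks old, of both sexes, and either homozygous for a Pirb deletion (Pirb-/-, called knockout here) or wildtype littermates (Pirb+/+). Pirb encodes an inhibitory receptor of myeloid cells. Marrow eosinophils came from mice without Dox (2 wildtype and 3 knockout arrays) and from mice given Dox for 2 weeks (3 wildtype and 3 knockout arrays). Esophageal eosinophils came from mice given Dox only (3 wildtype and 3 knockout arrays). The cells were sorted as positive for CD45, Siglec-F and CCR3, after collagenase digestion for the esophagus and passage through a needle for marrow.

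Lysosomes are acidic organelles in which hydrolases degrade material delivered by endocytosis and autophagy. The V-ATPase acidifies the lumen: its cytosolic V1 sector hydrolyses ATP, and its membrane V0 sector moves protons. The transcription factor TFEB and its relatives bind a short palindromic DNA element in the promoters of many lysosomal genes. In eosinophils, lysosomes are related to the crystalloid granules that store cationic proteins, and CD63 is a membrane marker of these granules.

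The deposited values are taken as log2 and are centred on the middle array of each probe set. A value near 0 is therefore the level of the middle array, not a low level, and a value of 1 is a 2-fold higher signal than that array. No level can be compared between genes. Over all genes, the SD of an array was 0.231 to 0.284 in 10 of the 11 marrow arrays, and the 6 arrays from the esophagus had 0.511 to 0.612. The remaining marrow array, knockout without Dox replicate 3, had an SD of 0.802 and a mean correlation across genes of -0.0268 with its own group and 0.247 with the esophageal arrays. Values that include it are given with and without it where leaving it out moved them by more than 1.5-fold or turned their sign. Pirb itself read 0.75 to 2.17 in wildtype and 0.77 to 1.20 in knockout esophagus, and whether its probes lie in the deleted part is not given, so it is no check of genotype. The eosinophil markers split between the tissues: Prg3, Prg2 and Epx, which encode granule proteins, were lower in the esophagus in both genotypes (Prg3 fell by 5.22 in wildtype), and Alox15, a lipoxygenase, was higher (2.95 in wildtype). Neutrophil markers were lower in the esophagus for 11 of 16 genes in wildtype and 12 of 16 in knockout cells. The shares of all genes were 7.06% and 6.04%. The neutrophil list means were -2.99 to -2.13 in the 6 esophageal arrays and -0.05 to 0.33 in the 6 marrow arrays with Dox. In RNA from sorted cell pools, fewer cells of a type and less RNA per cell cannot be told apart.

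**Figure D1:**
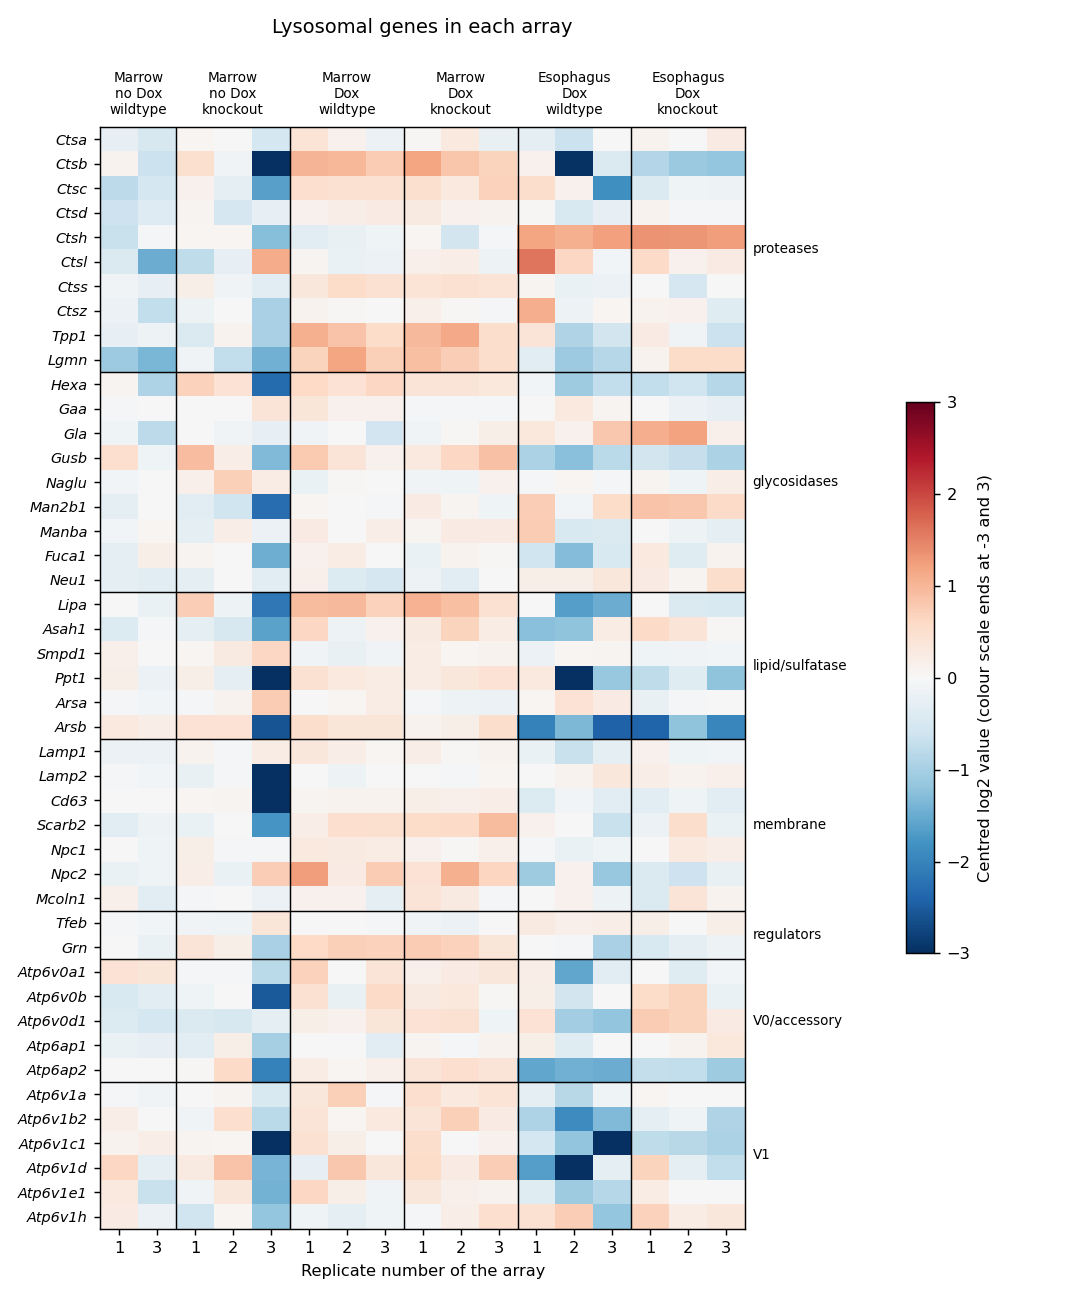
Centred log2 value of the 45 measured lysosomal genes (rows, by role) in the 17 arrays (columns, by group and replicate number), with red above and blue below the middle array. Knockout marrow without Dox replicate 3 was the lowest array for 21 of the 45 genes, and Ctsh was above 1 in each of the 6 esophageal arrays.

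RefSeq promoter windows, from 250 bases before to 50 bases after the annotated start of a gene (GRCm38.p6), were in the table for 40 of the 47 genes. They are shown because they carry the letters that TFEB and related factors bind. The 6-letter palindrome CACGTG was in 14 of the 40 windows (35%), against 7.15% of all 32851 windows and 8.09% of the 27025 genes in the table. The 8-letter palindrome TCACGTGA, which holds the shorter one, was in 6 of 40 (15%), against 0.974% of all windows and 1.12% of the genes. Both were read on both strands, which for a palindrome are the same. Among the genes that passed the tissue comparison within wildtype or within knockout mice, described later, 3 of 11 windows held CACGTG (27.3%), as did 11 of the other 29 (37.9%). Those 29 include Gla and Neu1, which passed in the tissue average over both genotypes. Gla holds the 8-letter form at -227 and -194, and Neu1 holds no match. Ctsh, Npc1 and Atp6v1b2 passed within a genotype but had no window in the table. A match of letters is a description of the window, not evidence of binding. The 3 genes with a match among the 11 were Lamp1, Lgmn and Atp6v1a, and the 250 bases before their starts follow, 5′ to 3′ on the strand of the gene, with CACGTG in capitals.
Lamp1 (chr8:13158911-13159160, plus strand): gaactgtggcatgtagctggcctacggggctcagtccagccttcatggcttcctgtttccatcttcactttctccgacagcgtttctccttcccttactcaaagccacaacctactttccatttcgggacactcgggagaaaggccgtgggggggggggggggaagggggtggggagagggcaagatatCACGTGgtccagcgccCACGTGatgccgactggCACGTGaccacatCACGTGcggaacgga
Lgmn (chr12:102439093-102439342, minus strand): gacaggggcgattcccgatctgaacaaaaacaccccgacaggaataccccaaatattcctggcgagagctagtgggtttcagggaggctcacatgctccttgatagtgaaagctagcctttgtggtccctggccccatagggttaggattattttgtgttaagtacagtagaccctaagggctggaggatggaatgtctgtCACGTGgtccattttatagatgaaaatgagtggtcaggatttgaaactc
Atp6v1a (chr16:44139260-44139509, minus strand): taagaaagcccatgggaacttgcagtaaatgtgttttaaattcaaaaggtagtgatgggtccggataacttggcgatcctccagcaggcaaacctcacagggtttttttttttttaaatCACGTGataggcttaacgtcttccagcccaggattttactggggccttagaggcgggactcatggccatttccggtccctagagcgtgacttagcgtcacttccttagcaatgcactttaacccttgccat
Lamp1, which encodes a major glycoprotein of the lysosomal membrane, had 4 matches, whose first bases lay at -61, -45, -28 and -15 from the start. Lgmn had 1 match at -49. In Atp6v1a the match at -131 was the 8-letter form.

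The first comparison asked how eosinophils in the esophagus differ from those in marrow of mice on Dox. In wildtype mice, 13 of the 45 lysosomal genes were lower in esophageal than in marrow eosinophils and 1 was higher, after Benjamini-Hochberg adjustment over all genes in limma. The lower genes included the protease Lgmn, the pump subunits Atp6v1b2, Atp6v1a and Atp6ap2, the cholesterol carriers Npc1 and Npc2 and the sulfatase Arsb, and the gene that was higher was the protease Ctsh. Among all genes, 7.06% were lower and 8.11% higher, so that the lysosomal list held a larger share of lower genes (28.9%) and a smaller share of higher genes (2.22%). The median difference of the 45 genes was -0.57, against 0.14 over all genes, and 14 of 45 lay above 0, against 70% of all genes. In knockout mice, 3 genes were lower (Arsb, Npc2 and Ctss) and 1 was higher (Ctsh), against 6.04% and 4.5% of all genes, with a median of -0.18 against 0.06. Arrays of the esophagus lay wholly below those of marrow for 22 of the 45 genes in wildtype and for 20 in knockout mice, against 13.1% and 16% of all genes.

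Averaging both genotypes, a comparison added after the data were seen, called 13 genes lower and 3 higher, against 12.2% and 17.7% of all genes. The lower genes were Arsb, Ctsb, Lipa, Atp6ap2, Gusb, Npc2, Atp6v1b2, Tpp1, Lgmn, Grn, Ctss, Atp6v1a and Lamp1. The higher genes were Ctsh, Gla and Neu1.

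Among the 10 proteases, cathepsin H alone passed as higher in the esophagus, and did so in both genotypes. Ctsh encodes an aminopeptidase of the papain family. It read 1.17, 1.05 and 1.23 in wildtype and 1.35, 1.33 and 1.25 in knockout esophagus. In marrow with Dox it read -0.33, -0.22 and -0.13 in wildtype and 0.07, -0.55 and -0.06 in knockout cells. All 6 esophageal arrays stood above all 11 marrow arrays. The difference was 1.38 ± 0.29 (SE of the model, 3 against 3 arrays) in wildtype, a 2.60-fold rise (adjusted p = 0.0097), and 1.49 ± 0.29 in knockout cells, a 2.81-fold rise (adjusted p = 0.00518). Both calls were made under each of the 24 alternative settings tried.

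Lgmn encodes legumain, which cuts after asparagine and activates several cathepsins. In wildtype mice it read 0.66, 1.19 and 0.72 in marrow with Dox and -0.35, -1.10 and -0.86 in the esophagus. These groups did not overlap, and the difference of -1.63 ± 0.29 was a 3.09-fold fall (adjusted p = 0.00373). In knockout mice it read 0.91, 0.75 and 0.52 in marrow and 0.10, 0.54 and 0.55 in the esophagus, which overlap, with a difference of -0.33 ± 0.29 (adjusted p = 0.558). The wildtype call was also made under each of the 24 alternatives.

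Cathepsin S, a protease of antigen processing, was lower in the esophagus in both genotypes by similar amounts. Ctss read 0.33, 0.56 and 0.46 in wildtype marrow and 0.07, -0.21 and -0.18 in wildtype esophagus. In knockout cells it read 0.40, 0.45 and 0.41 in marrow and -0.02, -0.50 and 0.02 in the esophagus. Its differences were -0.55 ± 0.15 (adjusted p = 0.0268) and -0.59 ± 0.15 (adjusted p = 0.0212). The wildtype call for Ctss was kept in 12 of the 17 fits that each left out 1 array, and the knockout call in 13. Tpp1, a peptidase that removes tripeptides, was lower in wildtype (-1.17 ± 0.34, adjusted p = 0.0372) and at -1.05 ± 0.34 in knockout cells (adjusted p = 0.07). The Tpp1 call was kept in 11 of the 17 fits. Both wildtype calls were lost with the mean of 3 Y-linked genes as a covariate, and that of Tpp1 also with only the compared groups in the model.

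With all arrays, the other proteases did not pass in either genotype. Cathepsin B (Ctsb), an endopeptidase with carboxypeptidase activity, had differences of -2.01 ± 0.83 in wildtype and -1.95 ± 0.83 in knockout cells (adjusted p = 0.107 and 0.179). Its esophageal arrays lay below its marrow arrays in both genotypes, but wildtype esophagus spanned 0.14 to -2.97, and the averaged call for Ctsb (-1.98 ± 0.59, adjusted p = 0.0246) was lost when any of 4 single arrays was left out. Without knockout marrow without Dox replicate 3, Ctsb was lower in wildtype (adjusted p = 0.0206) and in knockout cells (adjusted p = 0.0369). Cathepsin D (Ctsd), the main aspartic protease, stood at -0.42 ± 0.15 and -0.16 ± 0.15. Ctsd passed in wildtype without knockout marrow without Dox replicate 1, 2 or 3 (adjusted p = 0.0401, 0.0461 and 0.0449). It also passed without wildtype esophagus replicate 1 (adjusted p = 0.0264). Cathepsin L (Ctsl), an endopeptidase, stood at 0.81 ± 0.46 and 0.25 ± 0.46. Ctsa, Ctsc and Ctsz had differences between -0.86 and 0.29 in the 2 genotypes.

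**Figure D2:**
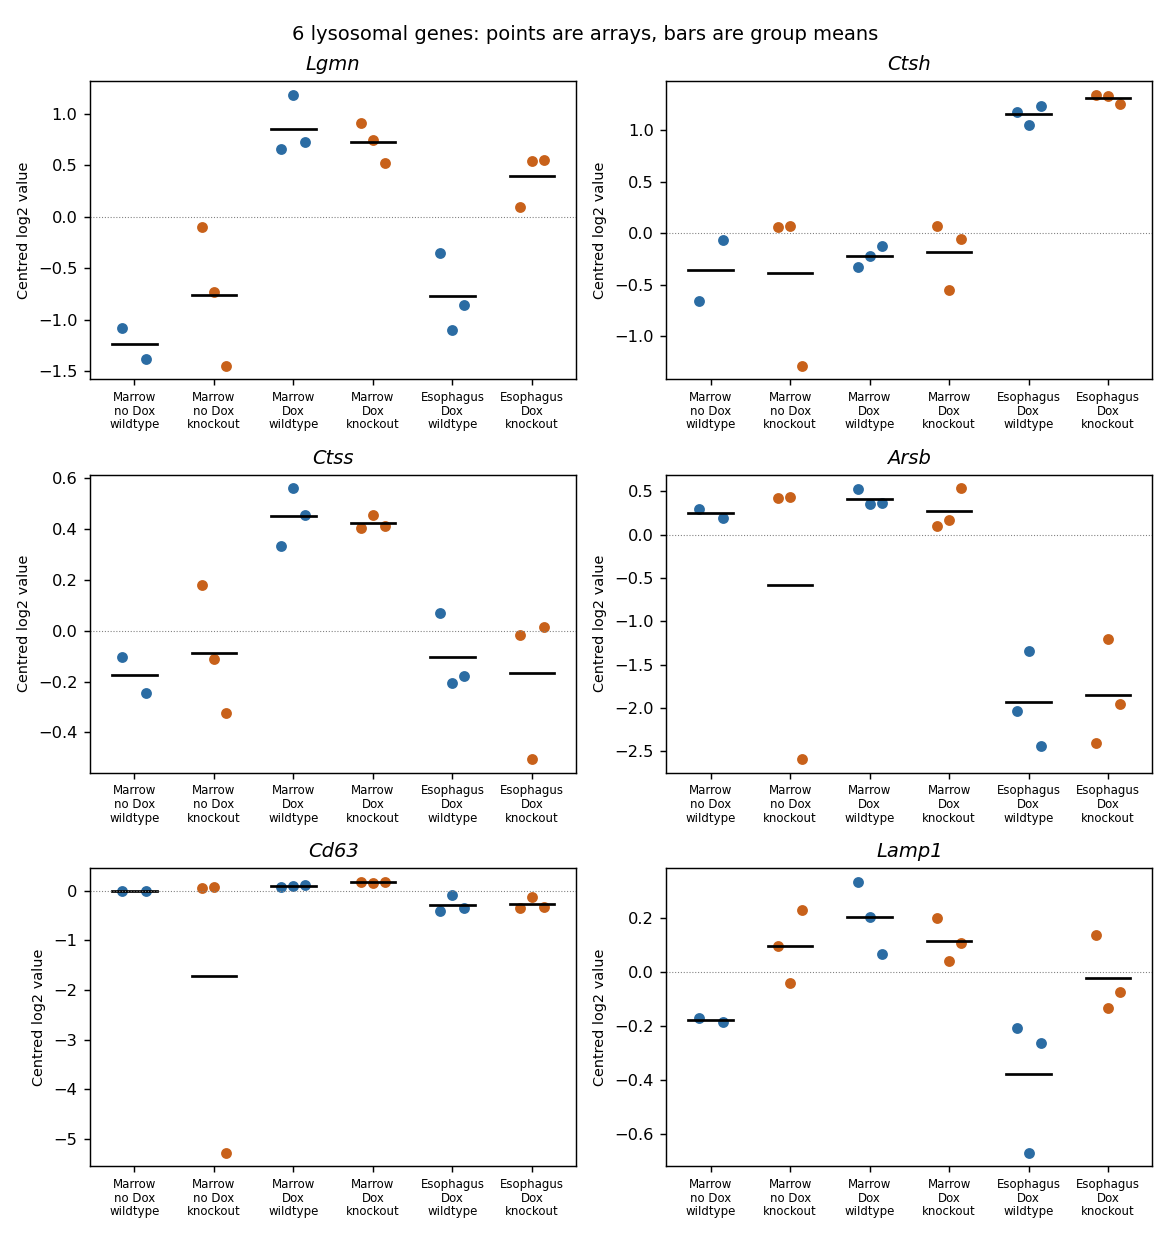
Centred log2 value of Lgmn, Ctsh, Ctss, Arsb, Cd63 and Lamp1 (one panel each, vertical axes differ) in each array (points) with group means (bars); wildtype is blue and knockout orange. Ctsh lay at 1.05 to 1.35 in the esophagus, Arsb at -2.43 to -1.20, and Cd63 at -5.27 in knockout marrow without Dox replicate 3 alone.

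Of the 9 glycosidases measured, 1 passed in wildtype mice and none in knockout mice. Gusb, which encodes beta-glucuronidase, read 0.78, 0.40 and 0.12 in wildtype marrow with Dox and -0.96, -1.25 and -0.81 in wildtype esophagus. The difference was -1.44 ± 0.42 (adjusted p = 0.0368), with -1.34 ± 0.42 in knockout cells (adjusted p = 0.0612). The Gusb call was kept in 10 of the 17 fits without 1 array, and was lost with quantile normalization and with the Y-linked covariate. In the average over genotypes Gla, the alpha-galactosidase that degrades globotriaosylceramide, was 0.71 ± 0.19 higher in the esophagus (adjusted p = 0.0157), a call lost with quantile normalization. Neu1, a sialidase, was 0.46 ± 0.12 higher (adjusted p = 0.0132). Glycosidases thus went both ways. Hexa, a subunit of beta-hexosaminidase, had differences of -1.18 and -1.09 that did not pass, and Gaa, Naglu, Man2b1, Manba and Fuca1 lay between -0.90 and 0.68.

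Among the 6 lipid enzymes and sulfatases, Arsb had the largest difference of all 45 genes in both genotypes. Arsb encodes arylsulfatase B, which removes sulfate from dermatan and chondroitin sulfate. It read 0.53, 0.36 and 0.36 in wildtype marrow with Dox and -2.03, -1.34 and -2.43 in wildtype esophagus. In knockout cells it read 0.10, 0.17 and 0.54 in marrow and -2.40, -1.20 and -1.95 in the esophagus. The falls were 5.10-fold (-2.35 ± 0.62, adjusted p = 0.026) and 4.35-fold (-2.12 ± 0.62, adjusted p = 0.0462). The wildtype call for Arsb was kept in 13 of the 17 fits without 1 array and lost with the Y-linked covariate. The knockout call was kept in 4 of the 17 and lost when each array was scaled to a median of 0, whereas the call averaged over genotypes was kept in all 17. Its 2 probe sets both fell, with differences of -1.27 and -3.43 in wildtype and -1.28 and -2.96 in knockout cells. Lipa, the lysosomal acid lipase that frees cholesterol from its esters, was lower in wildtype (-1.93 ± 0.57, adjusted p = 0.0399) and stood at -1.09 ± 0.57 in knockout cells (adjusted p = 0.284). The Lipa call was kept in 4 of the 17 fits and lost with the Y-linked covariate. The palmitoyl-thioesterase Ppt1, the ceramidase Asah1, the sphingomyelinase Smpd1 and the sulfatase Arsa did not pass, with differences from -1.69 for Ppt1 to 0.15 for Arsa.

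Of the 7 membrane and cholesterol-transfer genes, Lamp1, Npc1 and Npc2 were lower in wildtype esophagus and Npc2 also in knockout esophagus. Lamp1 read 0.34, 0.20 and 0.07 in wildtype marrow and -0.21, -0.67 and -0.26 in wildtype esophagus. Lamp1 fell by 0.58 ± 0.12 (adjusted p = 0.00975), a call lost with only the compared groups in the model. In knockout cells its arrays overlapped and the difference was -0.14 ± 0.12 (adjusted p = 0.565). NPC2 hands cholesterol to NPC1, which exports it through the lysosomal membrane. Npc2 was lower in wildtype (-1.44 ± 0.34, adjusted p = 0.0157) and in knockout cells (-1.14 ± 0.34, adjusted p = 0.0496). The wildtype call for Npc2 was kept in 15 of the 17 fits without 1 array and lost with only the compared groups in the model. The knockout call was kept in 7 of the 17, and lost with the replicate block and with the Y-linked covariate. It was also lost when every gene entered with 1 probe set, although Npc2 itself has only 1. Npc1 was at -0.39 ± 0.09 in wildtype (adjusted p = 0.0134), but its 2 probe sets disagreed: one gave -0.79 and the other 0.0067. The granule and lysosome marker Cd63 read 0.09, 0.10 and 0.11 in wildtype marrow and -0.41, -0.09 and -0.34 in wildtype esophagus. In knockout cells Cd63 read 0.18, 0.16 and 0.19 in marrow and -0.35, -0.13 and -0.32 in the esophagus. These groups did not overlap, and the differences of -0.38 ± 0.99 and -0.44 ± 0.99 did not pass (adjusted p = 0.783 and 0.845). The shared spread of Cd63 included a value of -5.27 in knockout marrow without Dox replicate 3. Without that array, Cd63 was lower in both genotypes (-0.38 ± 0.08, adjusted p = 0.00501, and -0.44 ± 0.08, adjusted p = 0.00263). Lamp2, Scarb2, the receptor that carries glucocerebrosidase to lysosomes, and the cation channel Mcoln1 did not pass.

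The list also held 2 regulators, Grn and Tfeb. Grn, which encodes progranulin, a precursor of lysosomal granulins, was lower in wildtype esophagus (-1.02 ± 0.31, adjusted p = 0.0423) and stood at -0.89 ± 0.31 in knockout cells (adjusted p = 0.0918). The Grn call was kept in 4 of the 17 fits without 1 array, and was lost with only the compared groups in the model and with the Y-linked covariate. Tfeb read 0.02, 0.01 and -0.03 in wildtype marrow and 0.28, 0.15 and 0.20 in wildtype esophagus. Its differences of 0.21 ± 0.11 and 0.23 ± 0.11 did not pass (adjusted p = 0.194 and 0.26), although the arrays of the tissues did not overlap in either genotype. Without knockout marrow without Dox replicate 3, Tfeb was higher in wildtype (adjusted p = 0.0248) and in knockout esophagus (adjusted p = 0.0284).

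Of the 11 V-ATPase genes measured, 3 were lower in wildtype esophagus and none passed in knockout esophagus. Atp6v1b2 encodes a B subunit of V1 and read 0.40, 0.06 and 0.29 in wildtype marrow against -0.92, -1.88 and -1.31 in wildtype esophagus. Its difference of -1.62 ± 0.31 was a 3.08-fold fall (adjusted p = 0.00562), and both of its probe sets were below 0 (-2.27 and -0.98). Atp6v1a, the catalytic A subunit, fell by 0.75 ± 0.20 (adjusted p = 0.0264). Atp6ap2, an accessory protein of the pump, fell by 1.64 ± 0.45 (adjusted p = 0.0288), with esophageal values of -1.55, -1.44 and -1.50. Without 1 array the Atp6v1a call was kept in 14 of the 17 fits and the Atp6ap2 call in 12, and both were lost with the Y-linked covariate, whereas that of Atp6v1b2 was kept in all 17 and with the covariate. In knockout cells these 3 genes stood at -0.88, -0.39 and -1.27. Knockout marrow without Dox replicate 3 enters this comparison only through the shared spread. Without it, Atp6v1b2 (adjusted p = 0.0327) and Atp6ap2 (adjusted p = 2.86e-05) were lower in knockout esophagus too, and Atp6v1a did not pass there. Of the V0 genes, Atp6v0d1, which links both sectors, was at -0.82 ± 0.32 in wildtype and 0.30 ± 0.32 in knockout cells (adjusted p = 0.0943 and 0.638). Atp6v1c1 and Atp6v1d had large differences in wildtype (-2.19 ± 0.99 and -1.93 ± 0.66), but their wildtype esophageal arrays spread from -0.52 to -4.21 and from -0.27 to -2.98, and neither passed. Atp6v0a1, Atp6v0b, Atp6ap1, Atp6v1e1 and Atp6v1h did not pass either. Without knockout marrow without Dox replicate 3, Atp6v1c1, Atp6v1d, Atp6v0a1 and Atp6v1e1 were lower in wildtype (adjusted p = 0.0247, 0.0227, 0.0441 and 0.0127).

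**Figure D3:**
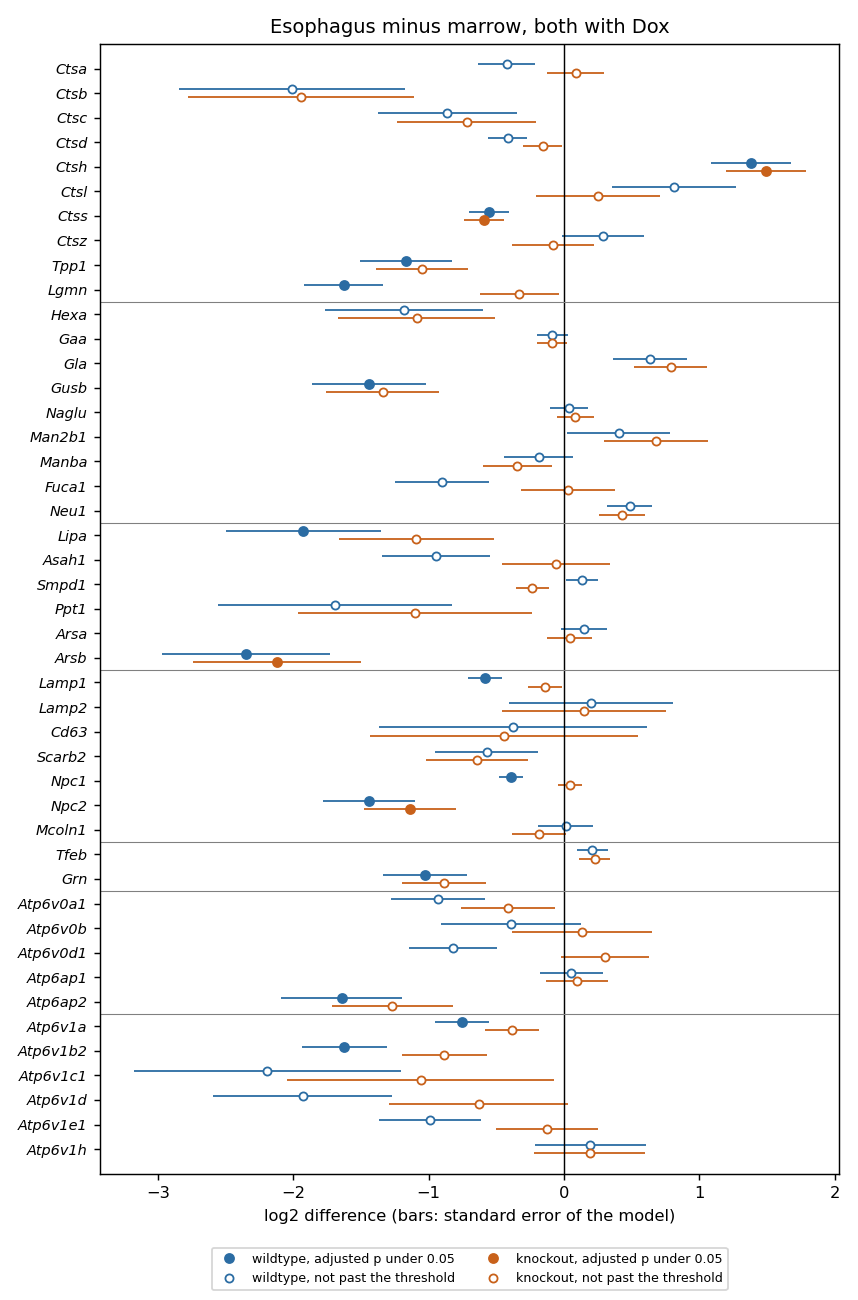
Difference between esophageal and marrow eosinophils with Dox (horizontal axis, log2) for each gene in wildtype (blue) and knockout (orange) mice; bars are the standard error of the model, and filled points passed an adjusted p of 0.05. In wildtype 13 filled points lie below 0 and Ctsh above it, while in knockout Arsb, Npc2 and Ctss lie below 0.

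How many lysosomal genes passed in the tissue comparison depended on single arrays. The wildtype count of 14 became 5, 6 and 7 without wildtype marrow Dox replicates 1, 2 and 3, 7 and 8 without wildtype esophagus replicates 2 and 3, and 26 without knockout marrow without Dox replicate 3, which enters only through the shared spread. Those 26 were 23 lower and 3 higher, against 11.4% and 25.1% of all genes. The lower genes that passed anew were Asah1, Atp6v0a1, Atp6v1c1, Atp6v1d, Atp6v1e1, Cd63, Ctsb, Ctsd, Fuca1 and Hexa. Neu1 and Tfeb passed anew as higher. Of all genes, 6.02%, 7.89% and 8.96% passed without wildtype marrow Dox replicates 1, 2 and 3. Without wildtype esophagus replicates 2 and 3, 8.67% and 9.49% did. The knockout count of 4 became 14 without knockout marrow without Dox replicate 3 (11 lower and 3 higher, against 9.07% and 9.75% of all genes). Atp6ap2, Atp6v1b2, Cd63, Ctsb, Grn, Gusb, Hexa and Tpp1 passed anew as lower there. Man2b1 and Tfeb passed anew as higher. The knockout count became 2 without either wildtype marrow array without Dox (9.66% of all genes). It was also 2 without wildtype marrow Dox replicate 3 (9.72%) or knockout esophagus replicate 1 (7.08%). It was 1 without knockout esophagus replicate 2 (7.85%) or any one of the knockout marrow Dox arrays (6.93%, 7.14% and 7.07%). The averaged count of 16 became 30 without knockout marrow without Dox replicate 3 (47.1% of all genes) and 25 without wildtype esophagus replicate 1 (33.6%). With quantile normalization, the knockout count was 9 lower and 1 higher, and the averaged count was 21 lower and 2 higher. Of all genes, 12.2% and 26.1% passed there in either direction. Whichever array was left out, 11 to 15 of 45 genes lay above 0 in wildtype and 14 to 17 in knockout mice. Scaling each array to a median of 0 moved the median of all genes from 0.14 to 0.03 in wildtype and left 11 lysosomal genes above 0.

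Markers of other cells moved in the same comparison. Of all genes, 7.06% were lower and 8.11% higher in wildtype esophagus, and 6.04% and 4.5% in knockout esophagus. A single higher marker in the lists that follow lay near these shares. Of 17 monocyte and macrophage markers, 3 were lower and 1 higher in wildtype esophagus, and 9 were lower and 1 higher in knockout esophagus. Ly6c2 fell by 5.23 in wildtype cells, Mertk fell by 2.94, and Adgre1, which encodes F4/80 and is also made by eosinophils, rose by 1.64. The list mean ranged from -0.37 to -0.19 in wildtype and -0.56 to -0.34 in knockout esophagus, and from 0.33 to 0.45 and 0.37 to 0.83 in the marrow groups with Dox. Of 11 mast cell and basophil markers, 4 were lower in each genotype. Of 10 fibroblast and endothelial markers, 1 was higher in wildtype and 3 in knockout esophagus, and of 10 dendritic cell markers, 2 were higher in each. The part of these cells, and of the neutrophils described above, in the lysosomal differences was not tested.

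The next comparison asked how Dox, which induces IL-13, changed marrow eosinophils. The lysosomal genes were mostly higher with Dox in both genotypes, but no gene passed within a genotype. In wildtype marrow 41 of 45 genes lay above 0 with a median difference of 0.24, against 48.5% of all genes and a median of -0.01. In knockout marrow 40 of 45 lay above 0 with a median of 0.58, against 30.6% of all genes and a median of -0.13. Of all genes, 0.0225% passed in each genotype. At an unadjusted p under 0.05, limma gave 8 of the 45 lysosomal genes in wildtype, against 4.31% of all genes, and 13 of the 45 in knockout marrow, a share near the 27.3% of all genes. The arrays with Dox lay wholly above those without for 26 of 45 genes in wildtype, against 12.5% of all genes, and for 15 in knockout mice, against 8.34%.

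Without knockout marrow without Dox replicate 3, the knockout median fell to 0.15, with 34 of 45 genes above 0, against 35.3% of all genes. At an unadjusted p under 0.05, limma then gave 7 of the 45, against 9.98% of all genes. Scaling each array to a median of 0 moved the median of all genes in this comparison from -0.13 to -0.02 and left 40 lysosomal genes above 0. Knockout marrow without Dox replicate 3 was the lowest of all 17 for 21 of the 45 genes, against 9.75% of all genes. The wildtype comparison does not contain it.

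Lgmn was the gene with the smallest p in wildtype and in knockout marrow. It read -1.08 and -1.38 in wildtype marrow without Dox and 0.66, 1.19 and 0.72 with Dox. In knockout marrow it read -0.10, -0.73 and -1.44 without Dox and 0.91, 0.75 and 0.52 with Dox. The groups did not overlap in either genotype. The differences were 2.09 ± 0.33 in wildtype, with an adjusted p of 0.0742, and 1.48 ± 0.29 in knockout marrow, with an adjusted p of 0.113. Averaged over the genotypes, a comparison added after the data were seen, Lgmn rose 3.45-fold (1.79 ± 0.22, adjusted p = 0.00534) and was the 1 lysosomal gene of the 0.234% of all genes that passed. This call was made without any one of the 17 arrays, and was lost when only the marrow groups entered the model. Wildtype Lgmn passed without knockout marrow without Dox replicate 1 (adjusted p = 0.0236) or replicate 3 (adjusted p = 0.0106), and knockout Lgmn passed without replicate 1 of that group (1.82, adjusted p = 0.0348).

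Among the other proteases, all 10 of the group had differences above 0 in both genotypes, and 8 did in knockout marrow without the array that stood apart. Ctss, next by p in the average, read -0.10 and -0.24 without and 0.33, 0.56 and 0.46 with Dox in wildtype marrow, and its averaged difference was 0.57 ± 0.11 (adjusted p = 0.0585). Ctsd stood at 0.69 ± 0.16 in wildtype and 0.38 ± 0.15 in knockout marrow, and Tpp1 at 1.02 ± 0.38 and 1.32 ± 0.34. Ctsd and Tpp1 averaged 0.54 ± 0.11 and 1.17 ± 0.26 (adjusted p = 0.0632 and 0.0848). Leaving out 1 array took these genes past the threshold: Ctsd and Ctss without knockout marrow without Dox replicate 1, Ctss without knockout esophagus replicate 2, and Ctsd, Tpp1 and Atp6v0d1 without wildtype esophagus replicate 1. Ctsb stood at 1.19 ± 0.93 and 1.82 ± 0.83, and the latter was 0.71 without the array that stood apart. Ctsl stood at 0.86 ± 0.51 and 0.03 ± 0.46, and the latter was 0.56 without it.

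The membrane genes all lay above 0 in both genotypes. Scarb2 read -0.32 and -0.16 without Dox against 0.19, 0.50 and 0.49 with Dox in wildtype marrow, and its knockout difference was 1.36 ± 0.38 (adjusted p = 0.146), or 0.80 ± 0.25 without the array that stood apart. Lamp1 stood at 0.38 ± 0.14 and 0.02 ± 0.12, and the latter was 0.09 without that array. Cd63 read 0.01 and -0.01 without and 0.09, 0.10 and 0.11 with Dox in wildtype marrow, a difference of 0.10 ± 1.11. In knockout marrow Cd63 read 0.06, 0.08 and -5.27 without Dox, so its difference of 1.89 ± 0.99 became 0.11 ± 0.09 without the last array. Lamp2 read -3.37 in the same array, and its difference of 1.22 became 0.13 without it.

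Of the remaining groups, 8 of 9 glycosidases lay above 0 in wildtype and 7 in knockout marrow, and 5 and 4 of 6 lipid enzymes and sulfatases. For the pump, 4 of 5 V0 and 5 of 6 V1 genes lay above 0 in wildtype and all 11 in knockout marrow. Without knockout marrow without Dox replicate 3, the knockout counts were 4 of 9 glycosidases, 3 of 6 lipid enzymes and sulfatases, and 5 of 5 V0 and 5 of 6 V1 genes. Atp6v0d1 read -0.40 and -0.52 without and 0.18, 0.12 and 0.36 with Dox in wildtype marrow, with differences of 0.68 ± 0.36 and 0.66 ± 0.32. Atp6v1a stood at 0.41 ± 0.22 and 0.53 ± 0.20. Tfeb stood at 0.07 ± 0.13 and -0.14 ± 0.11, and Grn at 0.76 ± 0.35 and 0.74 ± 0.31. Without that array the knockout differences were 0.02 for Tfeb, which turned its sign, and 0.32 for Grn. The genes below 0 in both genotypes were Smpd1 and Naglu, which degrades heparan sulfate.

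**Figure D4:**
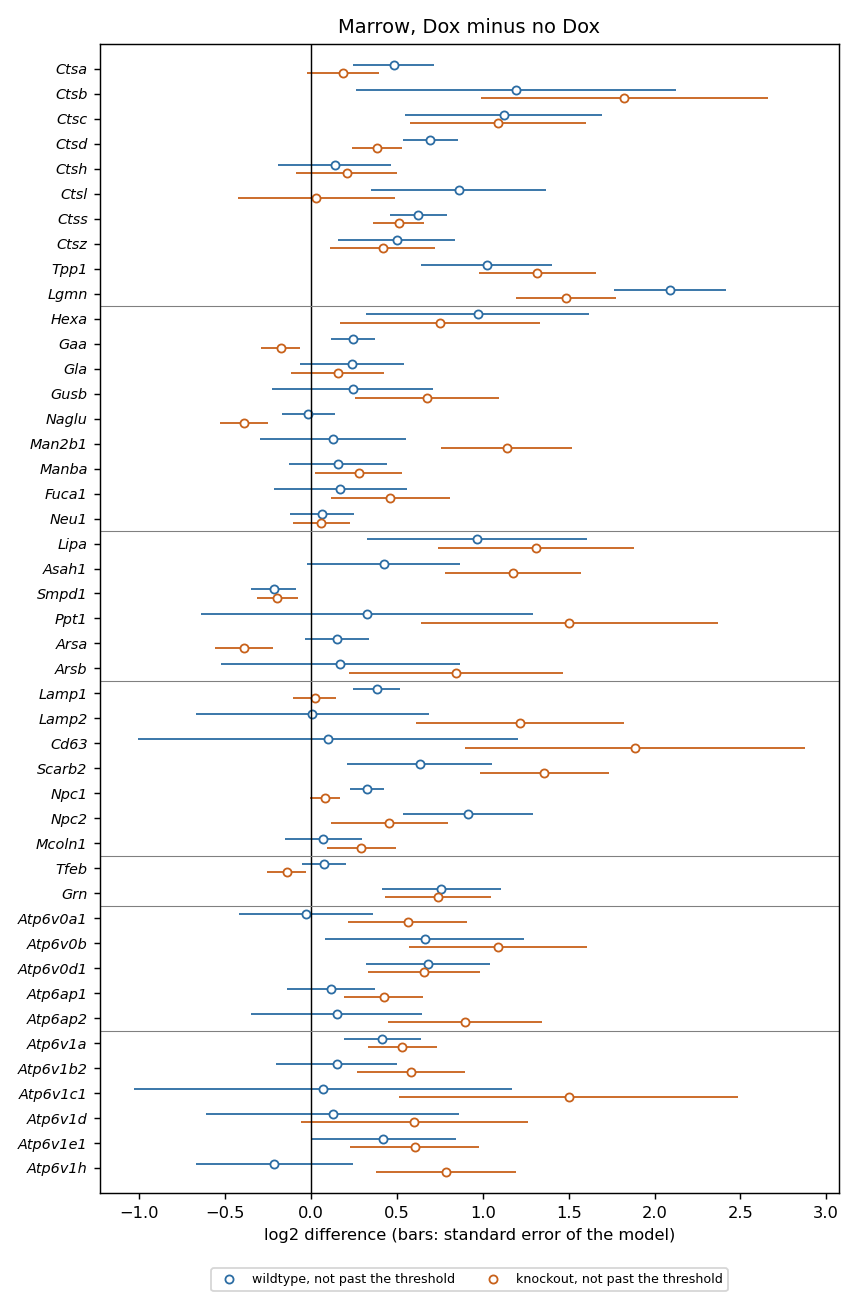
Difference between marrow eosinophils with and without Dox (horizontal axis, log2) for each gene in wildtype (blue) and knockout (orange) mice; bars are the standard error of the model, and all points are open because none passed. In wildtype 41 points and in knockout 40 points lie above 0, and the long bars of Cd63, Atp6v1c1, Ppt1 and Ctsb go with values as low as -5.27 in single arrays.

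The tissue and Dox comparisons share the marrow arrays with Dox, so they are set side by side by group rather than compared. In wildtype mice, marrow with Dox had the highest mean of the 3 groups for 30 of 45 lysosomal genes, against 20.5% of all genes. The esophagus was highest for 12, against 61.1%, and marrow without Dox for 3, against 18.4%. In knockout mice, marrow with Dox was highest for 27 genes, against 21.2% of all genes. The esophagus was highest there for 14, against 25.3%, and marrow without Dox for 4, against 53.4%. The lowest group in wildtype was the esophagus for 23 genes, against 24.5% of all genes, and marrow without Dox for 19, against 33.6%. In knockout mice it was marrow without Dox for 28 genes, against 16.6% of all genes, and the esophagus for 14, against 29.1%. Without knockout marrow without Dox replicate 3, these became 16 (19.7% of all genes) and 23 (31.1%), and marrow with Dox was highest for 24 (20.9%). The esophagus was then highest for 13 (42.6%) and marrow without Dox for 8 (36.5%). Averaged over the 45 genes, wildtype arrays read -0.25 and -0.10 in marrow without Dox, between 0.17 and 0.32 in marrow with Dox, and between -0.62 and -0.08 in the esophagus. Of the wildtype groups, marrow with Dox was also highest for monocyte and macrophage, mast cell and basophil, and eosinophil markers. For the other marker lists another wildtype group was. The mast cell and basophil list mean was 0.03 to 0.06 in wildtype marrow without and 0.21 to 0.30 with Dox. The eosinophil list mean was -0.42 and 0.58 without and 0.19 to 0.45 with Dox, which overlap. The monocyte and macrophage list mean was -0.21 to -0.17 in wildtype marrow without Dox and 0.33 to 0.45 with Dox. In the Dox average 2 of these 17 markers rose (Mertk by 1.69 and Mrc1 by 1.04), with 14 of 17 above 0. Of all genes, 0.234% passed in that average and 34.7% lay above 0. Csf1r, the receptor that macrophages need to survive, stood at 1.29 (adjusted p = 0.0857). The part of these cells in the Dox differences was not tested.

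**Figure D5:**
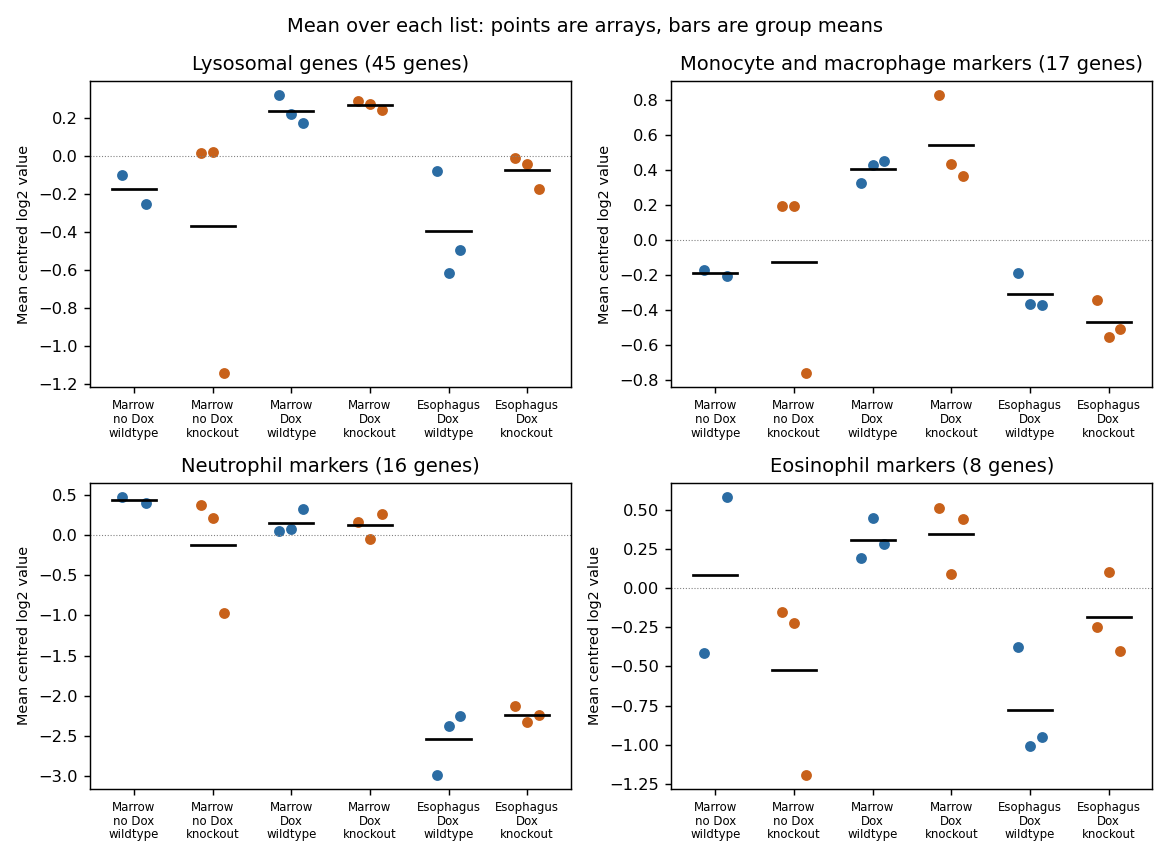
Mean centred log2 value over the 45 lysosomal genes and over 3 marker lists (one panel each, vertical axes differ) in each array (points) with group means (bars); wildtype is blue and knockout orange. The lysosomal genes and the monocyte and macrophage markers were both highest in marrow with Dox, at 0.17 to 0.32 and 0.33 to 0.83. The eosinophil markers also had their highest group means there, although 1 wildtype marrow array without Dox read 0.58.

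Loss of Pirb was then examined in each setting. In the esophagus, no lysosomal gene passed, against 0.347% of all genes, but 36 of 45 lay above 0 with a median of 0.23, against 30.1% of all genes and a median of -0.10. At an unadjusted p under 0.05, limma gave 11 of the 45 genes and 14.7% of all genes. Knockout arrays lay wholly above wildtype arrays for 9 genes (Ctsh, Lgmn, Fuca1, Lamp1, Npc1, Atp6ap2, Atp6v1a, Atp6v1b2 and Atp6v1e1), against 5.67% of all genes.

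The 3 smallest p-values were those of Lgmn, Atp6v0d1 and Npc1. Lgmn read -0.35, -1.10 and -0.86 in wildtype and 0.10, 0.54 and 0.55 in knockout esophagus, a difference of 1.17 ± 0.29 (adjusted p = 0.13). It passed without knockout marrow without Dox replicate 3 (adjusted p = 0.0229), as did Atp6ap2 (0.65, adjusted p = 0.0214), and it passed without wildtype esophagus replicate 1 (1.38, adjusted p = 0.0428). Atp6v0d1 read 0.42, -1.05 and -1.18 in wildtype and 0.75, 0.67 and 0.24 in knockout esophagus. These overlap through the first wildtype array, and the difference of 1.16 ± 0.32 (adjusted p = 0.172) became 1.67 without it (adjusted p = 8.56e-04). Npc1 stood at 0.29 ± 0.09 (adjusted p = 0.211).

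All 11 pump genes lay above 0 in knockout against wildtype esophagus, with medians of 0.47 for V0 and 0.89 for V1. Atp6v1b2 was next by p, at 0.94 ± 0.31 (adjusted p = 0.236), and Atp6v1a stood at 0.44 ± 0.20. The 7 membrane genes were above 0 as well, with Lamp1 at 0.36 ± 0.12 (adjusted p = 0.248) and Cd63 at 0.02 ± 0.99. Of the proteases 7 of 10 lay above 0. Ctsb stood at 0.04 ± 0.83, Ctsd at 0.22 ± 0.15 and Ctsl at -0.40 ± 0.46, and Tfeb stood at -0.09 ± 0.11. The count above 0 fell from 36 to 30 with quantile normalization and to 22, with a median of -0.07, when the mean of 3 Y-linked genes was a covariate. Mice of both sexes were used, and the labels do not give the sex behind single arrays. Among cell type markers in the same arrays, the mean of 8 eosinophil markers was -0.78 (range -1.01 to -0.38) in wildtype and -0.18 (-0.40 to 0.10) in knockout esophagus, with 6 of 8 above 0 in the difference and 1, Siglecf, higher (0.95 ± 0.16, adjusted p = 0.0259). The mean of 11 markers of T, B and NK cells was -0.12 (-0.28 to 0.07) in wildtype and -0.34 (-0.35 to -0.34) in knockout esophagus, with 1 of 11 above 0 and none past the threshold. The mean of the monocyte and macrophage markers was -0.31 in wildtype and -0.47 in knockout esophagus, with none of 17 past the threshold. Their part in the genotype differences was not tested.

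In marrow, genotype differences were divided in sign. With Dox, 25 of 45 genes lay above 0 and none passed, as for all genes (0%), with 2 of 45 at an unadjusted p under 0.05 in limma, against 1.83% of all genes. The smallest p-values were those of Smpd1 (0.27 ± 0.12), Gaa (-0.26 ± 0.11) and Npc1 (-0.15 ± 0.09). Ctsb, Ctsd, Ctsl, Lamp1, Cd63, Tfeb, Atp6v0d1 and Atp6v1a all lay between -0.10 and 0.16. Without Dox, 19 of 45 genes lay above 0 and none passed, again as for all genes (0%), with 2 of 45 at an unadjusted p under 0.05 in limma, against 8.16% of all genes. Without replicate 3 of the knockout group, 35 of 45 lay above 0 with a median of 0.17, against 58.1% of all genes. At an unadjusted p under 0.05, limma then gave 3 of the 45, against 3.91% of all genes. With all arrays, Naglu (0.40 ± 0.16), Man2b1 (-0.94 ± 0.43) and Lamp1 (0.27 ± 0.14) had the smallest p-values. Without replicate 3, Man2b1 stood at -0.33 ± 0.22. Cd63 and Ctsb, at -1.71 ± 1.11 and -0.66 ± 0.93, became 0.07 and 0.45. Ctsl stood at 0.99 ± 0.51 with and 0.46 ± 0.44 without it. Tfeb (0.11 ± 0.13), Atp6v0d1 (0.06 ± 0.36) and Atp6v1a (-0.05 ± 0.22) became -0.05, -0.00069 and 0.12, whereas Ctsd stood at 0.28 ± 0.16 and 0.29 ± 0.18.

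Whether tissue differences depended on genotype was tested directly. No lysosomal gene passed the genotype by tissue interaction (0.00451% of all genes did). The smallest p-values were those of Npc1 (0.44 ± 0.13, adjusted p = 0.651), Lgmn (1.30 ± 0.41, adjusted p = 0.784) and Lamp1 (0.44 ± 0.18, adjusted p = 0.962). Thus Lgmn and Lamp1 passed in wildtype and not in knockout mice, but this was not shown to be a difference between genotypes. Without wildtype esophagus replicate 1, Atp6v0d1 passed the interaction (1.64, adjusted p = 0.0219). No gene passed the genotype by Dox interaction (0% of all genes), where Gaa (-0.42), Arsa (-0.54) and Lamp1 (-0.36) had the smallest p-values. Without knockout marrow without Dox replicate 3, the values of these 3 genes were -0.30, -0.30 and -0.29.

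Other genes of the lysosomal system, none of them on the list of 47, also moved in the tissue comparison. The shares of all genes were 7.06% lower and 8.11% higher in wildtype and 6.04% lower and 4.5% higher in knockout esophagus, and in knockout cells most of the smaller lists that follow lay near or under these shares (1 of 16, 1 of 24, 1 of 22 and 0 of 24 lower). Of 50 further lysosomal enzymes, activators and membrane proteins, 8 were lower and 1 higher in wildtype esophagus, and 8 were lower and 3 higher in knockout esophagus. Gnptab, which makes the mannose 6-phosphate tag that sorts hydrolases to lysosomes, fell in wildtype (-1.89 ± 0.35) and in knockout cells (-1.84 ± 0.35). Pld3, a lysosomal exonuclease, fell by 1.59 ± 0.21 in wildtype, and Galc, which degrades galactosylceramide, fell by 1.91 ± 0.39 in knockout cells. Slc11a1, a metal transporter of phagosomes, rose by 1.64 ± 0.31 and 1.66 ± 0.31. Psap, the precursor of the saposins that assist glycolipid hydrolases, rose with Dox in wildtype marrow (1.29 ± 0.16, adjusted p = 0.0261) and was the 1 gene of this list to pass there.

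Of 16 other V-ATPase subunits, 2 were lower (Rnasek, -0.89, and Atp6v0a2, -0.85) and 1 higher (Atp6v1c2, 0.34) in wildtype esophagus, and Atp6v0a2 alone was lower in knockout esophagus (-0.83). Of 24 genes for the TFEB family and nutrient signalling at the lysosome, 3 were lower and 1 higher in wildtype and 1 was lower in knockout esophagus. Tfec, a TFEB relative of myeloid cells, fell in wildtype (-2.43 ± 0.59) and in knockout cells (-2.97 ± 0.59). Lamtor4 and Rragc, parts of the complex that recruits the kinase mTORC1, had differences of -1.54 and -1.11 in wildtype cells. Of 22 genes of lysosome fusion and movement, 4 were lower and 1 higher in wildtype esophagus, led by the SNARE Vamp7 (-2.0) and the small GTPase Rab38 (-1.52), and Rab38 fell by 1.76 in knockout cells. Of 24 autophagy genes, the kinase gene Ulk2 was lower in wildtype cells (fell by 0.89) and none passed in knockout cells, both under the shares of all genes. Of 6 cathepsin inhibitors, Serpinb1a was lower in knockout cells (fell by 3.79). No gene of these 6 lists passed between genotypes in the esophagus.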

How the data were processed

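Expression was measured on 17 Affymetrix 1-colour arrays. RNA was amplified before labelling, per the labels' protocols, and the submitters' processing notes name Affymetrix Expression Console. The deposited values are log2 values that the authors centred per probe set. The base is taken as 2, and the base and any scaling between arrays stay unknown. In 97.08% of probe sets the middle pair of values was equal and opposite (tolerance 2e-05), which places 0 at the middle array and leaves brightness unknown, so no filter on dim probes could be applied. Of 33793 probe sets, 23521 had 1 gene symbol, 1814 several and 8458 none. Symbols were updated by Entrez identifier in a GRCm38.p6 gene table (23328 matched). Several probe sets of a gene were averaged (1082 genes, 4 of the 45 members). No column was left out. The submitters removed 1 wildtype marrow array without Dox for weak hybridization, per the series design text.

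All arrays entered 1 linear model with a mean for each of 6 groups (limma 3.58.1 with eBayes, R 4.3.3), a script tested on simulated data. Tests were two-sided, adjusted by Benjamini-Hochberg over the 22180 genes, and 0.05 was the threshold. Errors are the model's standard errors. Sample titles gave groups and replicate numbers. No label says if a replicate is 1 animal or a pool, and p-values cover only the spread among these arrays, which may be technical; the number of arrays limits the precision. The members and gene lists were chosen with earlier results of these data known. In each comparison the genes past the threshold were named, at most 10 in each direction, or otherwise the 3 with the smallest p, and Lamp1, Cd63, Ctsd, Ctsb, Ctsl, Tfeb, Atp6v0d1 and Atp6v1a were given throughout. Of each pathway list, at most 3 genes past the threshold were named per comparison. Psap, the array-specific values and the marker genes were chosen after their values were seen. The alternatives were quantile normalization, median centring, only the groups compared, array weights, 1 probe set per gene, a replicate block, a Y-linked covariate and leaving out each array.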

Additional observations from a re-analysis of the deposited data

How the results depend on the processing

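Without a single array, the number of lysosomal genes past the threshold ranged from 5 to 26 for tissue in wildtype, 1 to 14 for tissue in knockout and 15 to 30 for the tissue average. The shares of all genes ranged with it, from 6.02% to 36.5%, 6.93% to 18.8% and 21.5% to 47.1%. The number of lysosomal genes ranged from 0 to 1 for Dox in wildtype, 0 to 1 for Dox in knockout, 1 to 4 for the Dox average, 0 to 2 for genotype in the esophagus and 0 to 1 for the genotype by tissue interaction. In the same order, the shares of all genes reached at most 0.149%, 1.56%, 0.437%, 3.44% and 0.153%. With quantile normalization the count was 10 for tissue in knockout (12.2% of all genes) and 1 for genotype in marrow without Dox (0.167%). The latter was Lgmn (1.84, adjusted p = 0.0425). The count was then 2 and 3 for Dox in wildtype and knockout (0.568% and 1.05%) and 9 for the Dox average (2.09%). With only the groups compared it was 20 for tissue in knockout (20.1% of all genes), 29 for the tissue average (43.8%) and 0 for the Dox average (0.0361%). With array weights it was 25, 17 and 29 for tissue in wildtype, in knockout and on average (37%, 27.6% and 52.5% of all genes). It was 2 for genotype in the esophagus (Lgmn and Atp6v0d1, beside 3.87% of all genes). For Dox it was 1 and 11 in wildtype and knockout (0.248% and 15%) and 14 on average (6.85%). With the Y-linked covariate it was 6 and 9 for tissue in wildtype and knockout (7.34% and 14.5% of all genes). The cause of these changes was not tested. The tissue difference of Npc1 in wildtype was 0.0067 on its lowest-numbered probe set, the 1 result that changed sign after passing.

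With a replicate block the count was 2 for the Dox average (Lgmn and Ctsd, beside 0.352% of all genes). For tissue it was 16 in wildtype (16.4% of all genes), 4 in knockout (10.6%) and 20 on average (31.4%). The replicate numbers are not known to pair the arrays: of 40 same-number pairs, 11 had a correlation of deviations over 0.1 (range -0.0999 to 0.2305), and 11 of 17 arrays correlated best with their own number. Over all retests of a lysosomal gene in a comparison, 11544 values kept their side of the threshold, 225 passed anew and 110 no longer passed. Signal over background is unknown, so which differences lie near the detection limit cannot be told.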

Other observations

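In the tissue difference averaged over both genotypes, a comparison added after the data were seen, lists around the lysosome also held genes that passed, beside 17.7% of all genes higher and 12.2% lower in the esophagus. Of 24 autophagy genes, 2 were higher, under the share of all genes, and 3 lower, near that share. Sqstm1, which encodes the cargo receptor p62, was higher in the esophagus (0.61 ± 0.15, adjusted p = 0.0109), as was Atg9a, a membrane protein of early autophagosomes (0.44 ± 0.13). Ulk2, Atg5 and Gabarapl1, which act in the start and growth of autophagosomes, were lower (-0.78, -0.51 and -0.50). Of 22 genes of lysosome fusion and movement, 2 were higher, under the share of all genes, and 6 lower, over that share. Vps39 and Vps41, subunits of the HOPS tethering complex, were lower (-1.01 ± 0.26 and -0.94 ± 0.28), and Lyst, whose loss gives giant lysosomes in Chediak-Higashi syndrome, was higher (1.17 ± 0.34, adjusted p = 0.0235). Of 6 cathepsin inhibitors, Serpinb1a and Cst7 were lower (-3.10 ± 0.55 and -2.11 ± 0.48). Of 16 V-ATPase subunits outside the list of 47, 4 were higher and 2 lower, so these subunits were divided in sign.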
